A study of Mus musculus with 9 samples.

Results

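The 5-gene nuclei described here are 1361 of the 27738 nuclei (4.91%) sequenced from the kidneys of 9 mice. A nucleus was chosen when its unique molecular identifiers (UMIs, each standing for 1 captured RNA molecule) of Sorcs3, Slc14a2, Chst9, Fst and Tshz2 summed to 3 or more and outnumbered those of Slc12a1, Slc12a3 and Slc34a1. The rule was written for thin limb nuclei, and the members were chosen by their measured UMIs of these 8 genes, so levels of the 5 genes are given as description with no test. The label held in control kidneys, where thin limb markers outside the rule summed to between 1464 and 3591 CPM (UMIs scaled to a common library total) in the chosen nuclei, against 172 to 444 CPM in the other nuclei of the same libraries. In injured kidneys the same markers summed to 405 to 596 CPM in the chosen nuclei, against 200 to 260 CPM in the other nuclei, and genes of stromal cells led the list of enriched genes. The values from injured kidneys therefore go against the label, and the nuclei are called 5-gene nuclei throughout.

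The thin limbs of the loop of Henle lie between the proximal tubule and the thick ascending limb, deep in the salty medulla of the kidney. The descending limb passes water through the channel Aqp1 and urea through the transporter encoded by Slc14a2, and the ascending limb passes salt but little water. This arrangement is part of the countercurrent system that concentrates the urine. Of the other genes of the rule, Fst encodes follistatin, a secreted inhibitor of activins, Sorcs3 a sorting receptor, Chst9 a carbohydrate sulfotransferase and Tshz2 a zinc-finger transcription factor. The excluded genes mark other segments: Slc12a1 the thick ascending limb, Slc12a3 the distal convoluted tubule and Slc34a1 the proximal tubule.

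All mice were males aged 11 to 19 weeks. In 5 mice both renal pedicles were clamped for 18 min (ischemia-reperfusion injury, IRI), and kidneys were taken at day 28 in 3 mice and at day 7 in 2. These mice carried the alleles Krt20T2A-CE and INTACTnuGFP/+ and had received tamoxifen at 0.05 mg/g, so that the nuclear green fluorescent protein (GFP) depended on Krt20, a keratin gene. The 4 control mice carried Six2TGC, Rosa26rtTA and pTRE-H2BeGFP, received doxycycline food at 625 mg/kg, and expressed GFP from a transgene driven through Six2, a gene of nephron progenitor cells. Of the controls, 3 had sham surgery and control mouse 1 had none. Nuclei of all mice were sorted on GFP before droplet RNA sequencing, and doublets were removed by gating on the sorter, per the labels' protocols. Reporter line and sort differed between every IRI mouse and every control mouse, so injury, reporter and sort cannot be told apart.

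The libraries held 1833617 to 14641038 UMIs. The 5-gene nuclei contributed 482342 and 612204 UMIs in day 28 mice 2 and 3 and 1787394 and 731985 UMIs in the day 7 mice, but 52003 UMIs in day 28 mouse 1. In controls they contributed 246332, 15712, 52866 and 7798 UMIs in mice 1 to 4. Control mouse 1 held 70.2% of the control members and 76.3% of their UMIs. A single UMI was worth 63.7 CPM in control mouse 2 and 128 CPM in control mouse 4. By their first letters, the cell barcodes of day 28 mouse 1 and the 4 controls were of the v2 set of the droplet kit and those of the other 4 IRI mice of the v3 set. In the 5-gene nuclei, Malat1, an abundant nuclear RNA, took 5.71% to 14.5% of UMIs in IRI libraries and 15.0% to 26.0% in control libraries. A cell barcode was shared with another library by 264 of all nuclei and by 5 of the 5-gene nuclei, and no pair of 5-gene nuclei shared one. Counting intervals and floors given here cover counting error alone.

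Tshz2 made up most of the sum that chose the nuclei. Over all members it gave 76.0% of the UMIs of the 5 genes and was seen in 92.1% of nuclei, against 11.3% and 29.3% for Chst9, 5.46% and 15.0% for Sorcs3, 4.22% and 11.3% for Fst, and 3.05% and 6.17% for Slc14a2. These are shares of summed UMIs, not levels per transcript length. By library, Tshz2 gave 88.1%, 79.2% and 82.3% of the 5-gene UMIs in the day 28 mice, 82.6% and 87.6% in the day 7 mice, and 49.6%, 57.6%, 38.9% and 57.8% in the controls. The IRI and control libraries did not overlap.

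**Figure D1:**
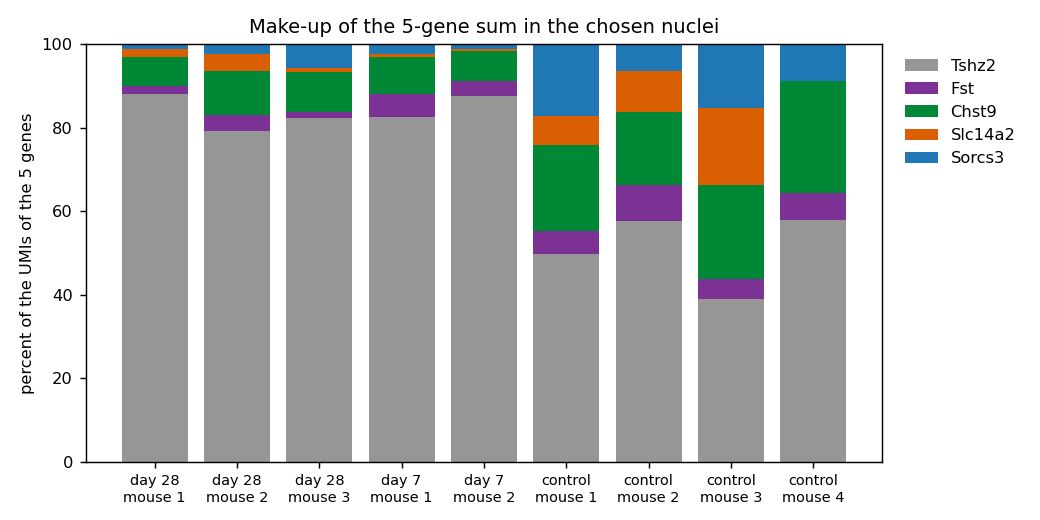
Share of each gene (percent of the UMIs of the 5 genes, stacked from Tshz2 at the bottom to Sorcs3 at the top) in the 5-gene nuclei of each mouse. Tshz2 takes between 79.2% and 88.1% in the 5 IRI mice and between 38.9% and 57.8% in the 4 controls.

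All 5 genes averaged less in the members from injured kidneys. The rule asks for 3 UMIs at any depth, so a shallower nucleus needs a higher CPM to be chosen. Median depth of the members was 713 to 3962 UMIs in IRI and 548 to 1058 UMIs in control libraries. The part of depth in the levels below was not tested. Slc14a2 stood at 96.2, 114 and 19.6 CPM in the day 28 mice, at 12.9 and 8.20 CPM in the day 7 mice, and at 369, 573, 1154 and 0 CPM in the controls. Sorcs3 stood at 57.7, 68.4 and 121 CPM at day 28, at 34.1 and 23.2 CPM at day 7, and at 897, 382, 965 and 513 CPM in controls. Every IRI library lay below every control library for Sorcs3, whereas control mouse 4 had no UMI of Slc14a2. Chst9 was at 346, 292 and 194 CPM at day 28, 127 and 137 CPM at day 7, and 1076, 1018, 1419 and 1539 CPM in controls. Fst was at 96.2, 104 and 29.4 CPM at day 28, 79.5 and 66.9 CPM at day 7, and 292, 509, 303 and 385 CPM in controls. Neither gene's groups overlapped. Tshz2 was at 4404, 2208 and 1697 CPM at day 28, 1200 and 1654 CPM at day 7, and 2594, 3373, 2440 and 3334 CPM in controls, with day 28 mouse 1 above all controls.

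Most members from injured kidneys met the rule through Tshz2 alone. Without Tshz2, 325 nuclei would still have been chosen, 182 from IRI mice and 143 from controls. The share of members that needed Tshz2 was 90.9%, 80.1% and 82.9% at day 28, 79.9% and 88.4% at day 7, and 50.7%, 60.0%, 38.9% and 83.3% in controls, where mouse 4 (12 members) overlapped the IRI range. At least 2 of the 5 genes were seen in 291 of 1072 IRI members (27.2%, 22.9% to 31.4% over libraries) and in 239 of 289 control members (82.7%, 55.0% to 85.7%). Tshz2 was the leading gene in 917 IRI members (85.5%) and 147 control members (50.9%), Chst9 in 91 (8.49%) and 48 (16.6%), Sorcs3 in 10 (0.933%) and 32 (11.1%), Slc14a2 in 6 (0.560%) and 14 (4.84%), and Fst in 25 (2.33%) and 10 (3.46%). These shares count the same UMIs that chose the nuclei, so they describe how the rule was met and do not test which kinds of nuclei met it.

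The level of the thin limb markers outside the rule differed with the leading gene in IRI members. That list of 15 genes included Aqp1, Bst1, Cryab, Epha7, Sptssb, Corin, Osr2, Prox1, Akr1b3, Jag1, Cldn3 and Cldn4. In IRI nuclei led by Slc14a2 it summed to 1745 CPM and in those led by Sorcs3 to 1092 CPM, against 410, 391 and 465 CPM in those led by Chst9, Fst and Tshz2. In control nuclei the same sums were 2051, 2940, 2252, 1440 and 2716 CPM. The high IRI sums rest on 6 and 10 nuclei. At the threshold of the rule, the 296 IRI and 73 control nuclei with a sum of 3 held 388 and 2253 CPM of these markers, and the 475 IRI and 70 control nuclei with a sum of 2, just outside it, held 345 and 2208 CPM.

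Against all other nuclei, the genes with the largest CPM ratio among those seen in 10 percent or more of the members differed between control and IRI libraries. In controls the list was led by Htr4, a serotonin receptor, at 497 CPM in 5-gene nuclei and 2.41 CPM in other nuclei, a ratio of 206. Bst1, an ADP-ribosyl cyclase, had a ratio of 82.3, Angpt2, an angiopoietin, 74.7, Apela, a peptide ligand of the apelin receptor, 47.8, and Scel 41.3. In IRI libraries C7, a complement component, led at 231 CPM in 5-gene nuclei and 4.27 CPM in other nuclei, a ratio of 54.2. Pdgfra, a platelet-derived growth factor receptor of fibroblasts, followed at 121 CPM in 5-gene nuclei and 2.61 CPM in other nuclei, a ratio of 46.3, and Lama2, a laminin chain of mesenchymal cells, had a ratio of 20.4. Over all libraries Gm26883 led, with a ratio of 39.0. This long noncoding RNA (GRCm38 chr2:169633646-169888503, minus strand) lies within Tshz2 (chr2:169633013-170071816, plus strand), and whether reads were counted by strand is not given in the sources used here, so its reads and those of Tshz2 cannot be told apart.

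Markers of stroma and endothelium moved with the injured libraries. The 10 stroma markers summed to 3000, 966 and 1245 CPM in the 5-gene nuclei at day 28, to 441 and 693 CPM at day 7, and to 130, 637, 568 and 0 CPM in controls, where Col1a1 and Acta2 had no UMI. The 7 endothelium markers in both tables summed to 1154, 856 and 738 CPM at day 28, to 579 and 597 CPM at day 7, and to 81.2, 318, 18.9 and 385 CPM in controls, where Kdr and Cdh5 had no UMI. At least 2 UMIs of stroma, endothelium or leukocyte markers were found in 473 IRI members (44.1%, 38.6% to 52.6% over libraries) and in 24 control members (8.30%, 6.40% to 15.0%), and in 2.04% to 16.5% of the other nuclei of a library. Members under that number, 599 from IRI mice and 265 from controls, still held 516 and 2641 CPM of the thin limb markers outside the rule and 7251 and 2253 CPM of injured tubule markers. Leukocyte markers averaged 87.4 CPM in IRI and 109 CPM in control libraries.

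The share of nuclei that met the rule asks whether these nuclei were more frequent in the sort after injury. The 5-gene nuclei made up 2.95%, 5.50% and 12.5% of nuclei in the day 28 mice, 9.57% and 7.19% in the day 7 mice, and 5.66%, 0.786%, 1.18% and 0.496% in the controls. The groups overlapped, since control mouse 1 lay above day 28 mice 1 and 2. The mean was 7.55% ± 3.69 in IRI mice (SD, n = 5) and 2.03% ± 2.43 in controls (SD, n = 4), a difference of 5.52 percentage points (two-sided exact permutation test over 126 splits, p = 0.0476, smallest possible 0.00794). Leaving out any single library except control mouse 1 raised the p of the exact permutation test to between 0.0571 and 0.107, with differences of 4.27 to 6.67 points, and without control mouse 1 the p was 0.0357. Between time points the mean was 6.99% ± 4.96 at day 28 (SD, n = 3) and 8.38% ± 1.68 at day 7 (SD, n = 2), a difference of -1.39 points (exact permutation test, p = 0.8, with 0.1 the smallest that 10 splits allow).

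The higher share after injury did not pass the test without Tshz2 or at matched depth. With Tshz2 left out of the rule, the shares were 0.268%, 1.10% and 2.15% at day 28, 1.92% and 0.836% at day 7, and 2.79%, 0.315%, 0.723% and 0.0827% in controls. That difference was 0.278 points (exact permutation test, p = 0.683), and control mouse 1 was the highest library. The median depth of the 5-gene nuclei was 713, 1802 and 2987 UMIs at day 28, 3962 and 2262 UMIs at day 7, and 1058, 747, 802 and 548 UMIs in controls. With each nucleus thinned to 1000 UMIs and shallower nuclei left out, the shares were 0.738%, 2.34% and 5.41% at day 28, 3.32% and 3.01% at day 7, and 3.06%, 0.178%, 0.266% and 0.251% in controls. The thinned difference was 2.03 points (exact permutation test, p = 0.0873).

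**Figure D2:**
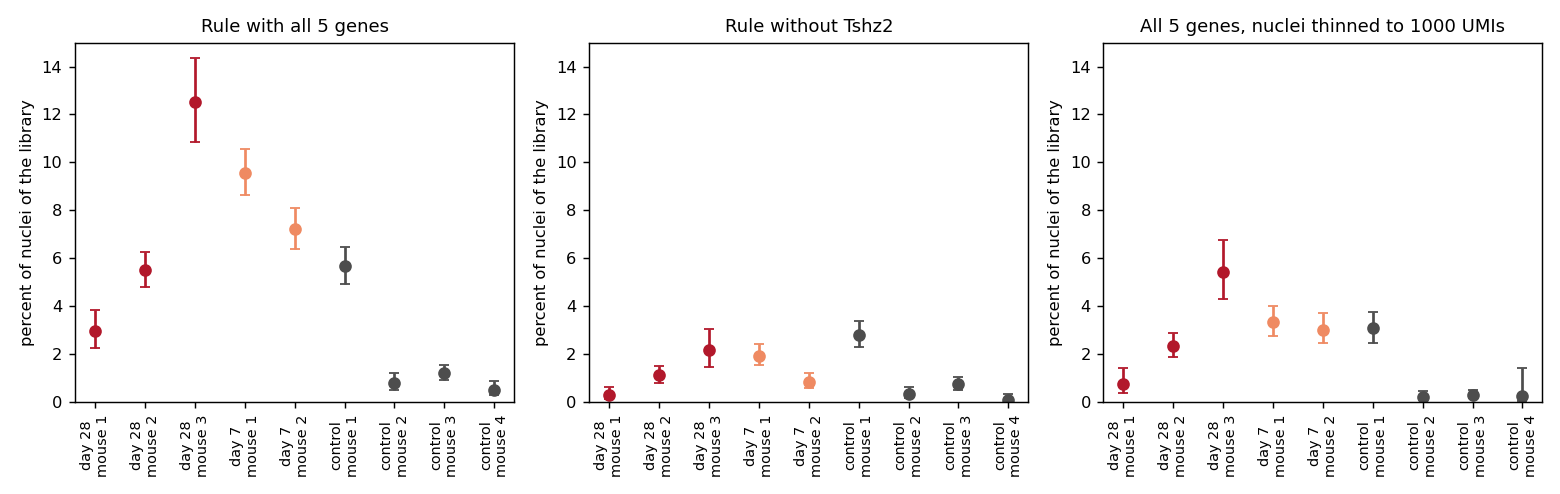
Percent of the nuclei of each library that met the rule with all 5 genes (left), without Tshz2 (middle) and with all 5 genes after thinning to 1000 UMIs per nucleus (right); points are libraries and bars are exact (Clopper-Pearson) 95% binomial intervals for counting error. With all 5 genes the IRI libraries range from 2.95% to 12.5% and the controls from 0.496% to 5.66%, and without Tshz2 control mouse 1 is the highest at 2.79%.

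The next comparison asks how RNA levels within the 5-gene nuclei differed after injury. UMIs were summed over the 5-gene nuclei of each mouse and tested with edgeR's quasi-likelihood test, with Benjamini-Hochberg adjustment over the 6625 genes fitted and a threshold of 0.05. Genes of the rule were left out of the counts, which cover 6618 tested genes. Of these, 1892 differed (28.6%), 1207 of them higher (18.2%) and 685 lower (10.4%) in IRI mice than in controls, and the median log2 change of all tested genes was 0.34. DESeq2 called 470 genes higher and 494 lower (median 0.24). Higher calls were 63.8% of calls with edgeR and 48.8% with DESeq2. The count was 738 without control mouse 1, 1095 and 1195 without day 7 mouse 1 or 2, and 1122 and 1065 without day 28 mouse 2 or 3. With the barcode set as a term in the model it was 182, of which 145 were higher and 37 lower. Day 28 mouse 1 was the sole IRI library of the v2 set, so with that term the comparison rests on its 55 members, and a call kept or lost there describes that library. Nothing in the labels says more of the replicates than that each is a mouse. A small edgeR p-value does not mean that the controls were alike. Akr1b3, at 385, 0, 19.7 and 0 CPM in controls, had an SE of 0.34 and an edgeR adjusted p of 1.37e-11. The levels of each library need to be read with the p-values. Gene levels below are CPM over the tested genes after edgeR's TMM scaling, and list sums are CPM over all UMIs.

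Thin limb markers outside the rule were lower after injury. They summed to 499 ± 74.2 CPM in IRI mice (SD, n = 5) and 2420 ± 954 CPM in controls (SD, n = 4). Of the 15 genes, 10 were tested, 8 fell and none rose, with a median log2 change of -2.88. Aqp1, the water channel, had 170, 69.7 and 48.2 CPM at day 28, 72.7 and 51.4 CPM at day 7, and 1299, 629, 197 and 1150 CPM in controls. Every IRI library lay below every control (log2 change -3.68, SE 0.296, edgeR adjusted p = 3.8e-29). Bst1 had 63.8, 64.4 and 39.4 CPM at day 28, 34.9 and 41.4 CPM at day 7, and 374, 286, 217 and 537 CPM in controls (log2 change -2.92, SE 0.319, edgeR adjusted p = 1e-16), again with no overlap. Cryab, a small heat shock protein, had 19.7 to 85.0 CPM in IRI mice and 76.7 to 582 CPM in controls, and its groups overlapped (log2 change -3.41, edgeR adjusted p = 5.16e-24).

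Corin was less even among controls. This protease, which activates natriuretic peptides, had 0, 140 and 15.3 CPM at day 28, 12.1 and 4.97 CPM at day 7, and 83.2, 0, 651 and 0 CPM in controls. Its log2 change was -3.02 (edgeR adjusted p = 1.99e-11), and -1.52 without control mouse 3. Its groups overlapped, and control mice 2 and 4 had no UMI. Akr1b3, an aldose reductase that makes sorbitol, had 0 to 77.8 CPM in IRI mice and 385, 0, 19.7 and 0 CPM in controls, so its fall (log2 change -2.56, edgeR adjusted p = 1.37e-11) was carried by control mouse 1. The claudin Cldn4 had 2.68 to 42.5 CPM in IRI mice and 62.4, 57.2, 0 and 0 CPM in controls (log2 change -2.84, edgeR adjusted p = 0.0059), and was not called without control mouse 1 (adjusted p = 0.761). Without control mouse 1, 4 of 7 tested markers of this list fell, without day 28 mouse 2 it was 4 of 6, and without day 28 mouse 3 it was 5 of 7.

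Thin limb markers stayed apart in the members chosen without Tshz2. There the list summed to 711 ± 192 CPM in IRI mice (SD, n = 5) and 3065 ± 1477 CPM in controls (SD, n = 4). The stroma list averaged 103 and 2.21 CPM and the endothelium list 69.5 and 22.7 CPM. These members numbered 5 in day 28 mouse 1, 8 in control mouse 2 and 2 in control mouse 4. The control levels of stroma and endothelium rest on 1 and 8 UMIs. In thick ascending limb (TAL) nuclei of the same libraries, 1479 nuclei with 3 or more UMIs of Slc12a1, the thin limb list averaged 310 ± 33.2 CPM in IRI mice and 432 ± 244 CPM in controls (SD, n = 5 and n = 4).

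**Figure D3:**
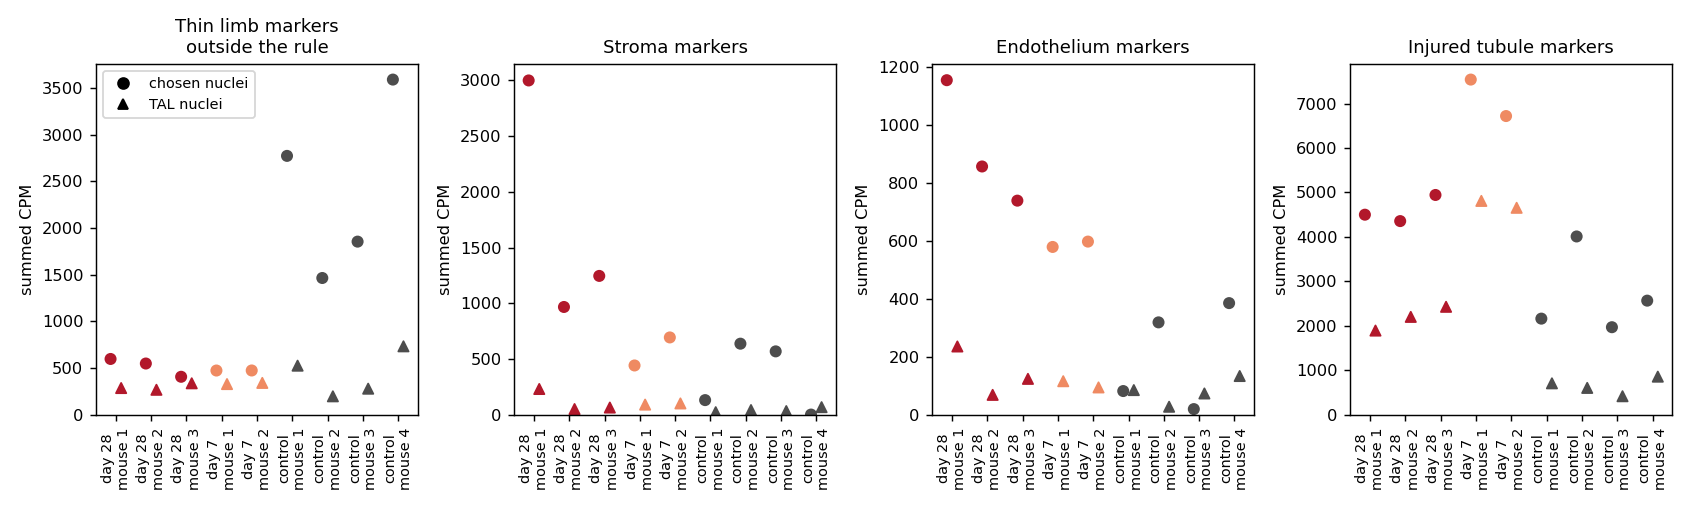
Summed CPM (over all UMIs, linear axes of different height) of 4 marker lists in each library; circles are 5-gene nuclei and triangles are TAL nuclei of the same library. Thin limb markers of the 5-gene nuclei lie at 405 to 596 CPM in IRI mice and 1464 to 3591 CPM in controls, and stroma markers reach 3000 CPM in day 28 mouse 1.

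Stroma and endothelium genes were higher in the IRI members. Of 7 stroma markers tested 6 rose and none fell (median log2 change 2.26), and of 5 endothelium markers all 5 rose (median 2.71). Leaving out control mouse 1, 1 stroma and 2 endothelium markers rose, without day 7 mouse 2 or day 28 mouse 3, 3 stroma markers rose, and DESeq2 called 1 stroma and 4 endothelium markers higher. Ebf1, a transcription factor of mesenchymal and B cells, had 1318, 582 and 587 CPM at day 28, 302 and 348 CPM at day 7, and 83.2, 229, 138 and 0 CPM in controls. All IRI libraries exceeded all controls (log2 change 2.26, SE 0.422, edgeR adjusted p = 2.75e-06). Flt1, a receptor for vascular endothelial growth factor, had 319, 333 and 307 CPM at day 28, 161 and 177 CPM at day 7, and 5.20, 0, 19.7 and 0 CPM in controls (edgeR adjusted p = 5.53e-11). With few control UMIs, its ratio of pooled CPM was 26.9 with a counting interval of 7.43 to 223. Emcn, an endothelial sialomucin, had 184 to 404 CPM in IRI mice and, in controls, 52.0 CPM in mouse 1 and no UMI in the others (log2 change 2.74, edgeR adjusted p = 3.52e-07).

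The fibroblast receptors rested on a few control UMIs. Pdgfra had 298, 140 and 215 CPM at day 28, 22.1 and 61.3 CPM at day 7, and 0, 57.2, 39.4 and 0 CPM in controls, a pooled ratio of 6.81 (counting interval 2.30 to 33.3, edgeR adjusted p = 0.000533). Pdgfrb, its pericyte relative, had 404, 107 and 114 CPM at day 28, 19.2 and 29.8 CPM at day 7, and 10.4, 0, 19.7 and 0 CPM in controls, a pooled ratio of 4.58 (counting interval 1.54 to 22.4, edgeR adjusted p = 0.00853). The groups of both genes overlapped. Without control mouse 1 neither was called, with adjusted p of 0.393 for Pdgfra and 0.252 for Pdgfrb. Fewer stromal nuclei among the members and less of these RNAs per nucleus cannot be told apart in such sums.

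Markers of injured tubule were higher after injury in the 5-gene nuclei and in the nuclei around them. In 5-gene nuclei the list of 20 summed to 5613 ± 1433 CPM in IRI mice (SD, n = 5) and 2675 ± 924 CPM in controls (SD, n = 4). It averaged 5563 CPM in IRI and 300 CPM in control libraries in all other nuclei, and 3196 and 642 CPM in TAL nuclei. In 5-gene nuclei, of 14 tested 9 rose and Krt18, a keratin, fell (median log2 change 2.27). Havcr1, the kidney injury molecule, had 170, 266 and 166 CPM at day 28, 1525 and 1099 CPM at day 7, and 20.8, 0, 0 and 0 CPM in controls (log2 change 5.17, SE 0.627, edgeR adjusted p = 1.02e-13). Dock10, an exchange factor for small GTPases, had 659, 853 and 1604 CPM at day 28, 1333 and 1349 CPM at day 7, and 10.4, 114, 39.4 and 0 CPM in controls (log2 change 5.64, SE 0.607, edgeR adjusted p = 3.25e-17). Cp, the copper carrier ceruloplasmin, had 1488, 1577 and 1542 CPM at day 28, 1781 and 1506 CPM at day 7, and 411, 572, 473 and 307 CPM in controls (log2 change 1.85, SE 0.397, edgeR adjusted p = 5.53e-05). None of the 3 genes overlapped between the groups, and Cp varied little within them, at 1579 ± 118 CPM in IRI mice (SD, n = 5) and 441 ± 111 CPM in controls (SD, n = 4).

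Further members of the injured list followed. Vcam1, an adhesion molecule, had 201 to 622 CPM in IRI mice and a single UMI in control mouse 3, a pooled ratio of 75.8 (counting interval 13.6 to 2997, edgeR adjusted p = 1.15e-13). Runx1, a transcription factor, had 213 to 618 CPM in IRI mice and 0 to 57.2 CPM in controls (log2 change 3.66, edgeR adjusted p = 8.6e-11). Cd44, a receptor for hyaluronan, had 85.0 to 745 CPM in IRI mice and 19.7 to 114 CPM in controls (log2 change 3.39, edgeR adjusted p = 1.21e-09), and day 28 mouse 1 overlapped the controls. Krt18 had 2.68 to 21.3 CPM in IRI mice and 0 to 153 CPM in controls (log2 change -2.54, edgeR adjusted p = 0.00524). With the barcode set as a term, Cd44 and Krt18 were not called. Without control mouse 1, 6 genes of the list rose and none fell. Krt20, the gene whose allele carries the driver in the IRI line, averaged 14.4 ± 9.67 CPM in IRI mice (SD, n = 5, over all UMIs) and 3.05 ± 6.09 CPM in controls (SD, n = 4).

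Genes of nuclear factor kappa B signalling and chemokines also rose. Their list averaged 2042 CPM in IRI and 973 CPM in control 5-gene nuclei, against 2633 and 300 CPM in all other nuclei. Of 10 tested, 8 were higher in IRI members and none lower (median log2 change 1.85): Nfkb1, Relb, Tnfaip3, Birc3, Cxcl1, Cxcl2, Il34 and Csf1. Birc3, an inhibitor of apoptosis, had 255, 236 and 329 CPM at day 28, 298 and 248 CPM at day 7, and 52.0, 114, 59.1 and 0 CPM in controls (log2 change 2.32, SE 0.433, edgeR adjusted p = 2.81e-06). Il34, a ligand of the receptor encoded by Csf1r, had 617, 1046 and 1124 CPM at day 28, 1136 and 1811 CPM at day 7, and 385, 114, 454 and 307 CPM in controls (log2 change 1.74, SE 0.385, edgeR adjusted p = 9.65e-05). For both genes every IRI library lay above every control. Relb, a subunit of the factor, had 91.2 to 182 CPM in IRI mice and 0 to 57.2 CPM in controls (log2 change 2.26, and 3.42 without control mouse 1, edgeR adjusted p = 0.000182). These 3 calls were lost with the barcode set as a term, as were the others of the list. Without control mouse 1 or day 28 mouse 2, 4 genes of the list rose, and without day 7 mouse 1, day 7 mouse 2 or day 28 mouse 3, 5 rose.

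Among 19 matrix, integrin and growth factor genes tested, 10 rose and 2 fell (median log2 change 1.12), against 18.2% and 10.4% of all tested genes. The list averaged 5901 CPM in IRI and 3417 CPM in control 5-gene nuclei, against 6258 and 2526 CPM in all other nuclei. Pdgfd, a platelet-derived growth factor, had 893, 1826 and 1945 CPM at day 28, 2137 and 1783 CPM at day 7, and 83.2, 343, 118 and 76.7 CPM in controls (log2 change 3.87, SE 0.492, edgeR adjusted p = 1.31e-12). Itgb6, the epithelial integrin chain that activates TGF-beta, had 446, 1011 and 894 CPM at day 28, 1792 and 1541 CPM at day 7, and 213, 172, 138 and 230 CPM in controls (log2 change 2.62, SE 0.423, edgeR adjusted p = 4.08e-08). Its partner Itgav had 425 to 1360 CPM in IRI mice and 114 to 198 CPM in controls (log2 change 2.33, edgeR adjusted p = 4.78e-07). None of these 3 genes overlapped between the groups. Itgb6 and Itgav were not called with the barcode set as a term. With control mouse 1 left out, 6 genes of the list rose and none fell. There was 1 fall without either day 7 mouse, 5 without day 28 mouse 1, and 4 without day 28 mouse 2, control mouse 2 or control mouse 4. Both genes that fell encode laminin chains, Lama3 and Lamb3. Lama3 had 63.8 to 196 CPM in IRI mice and 520, 114, 158 and 153 CPM in controls (log2 change -1.17, edgeR adjusted p = 0.000532), and without control mouse 1 its change was 0.015 with an adjusted p of 0.989. In the activin and bone morphogenetic protein list, 4 of 15 tested genes rose (Smad1, Smad2, Smad3 and Smad7) and 2 fell (Id3 and Fstl1), again beside 18.2% and 10.4% of all tested genes. Smad3, a carrier of TGF-beta and activin signals, had 255 to 532 CPM in IRI mice and 76.7 to 118 CPM in controls (log2 change 2.29, edgeR adjusted p = 1.04e-06).

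Genes best known from neurons were higher after injury. Their list averaged 4412 CPM in IRI and 1599 CPM in control 5-gene nuclei, against 4338 and 1331 CPM in all other nuclei. Of 10 tested, 6 rose and none fell (median log2 change 1.45): Nrg1, Dlg2, Sorcs1, Kcnh8, Robo2 and Sema5a. Kcnh8, a potassium channel, had 149, 598 and 583 CPM at day 28, 544 and 321 CPM at day 7 and no UMI in any control, at least 42.6-fold higher when set against a floor of 3 counts over the control group (edgeR adjusted p = 1.19e-17). Sorcs1, a relative of the rule gene Sorcs3, had 276, 928 and 701 CPM at day 28, 1146 and 845 CPM at day 7, and 15.6, 0, 0 and 0 CPM in controls, a pooled ratio of 82.1 (counting interval 28.1 to 398, edgeR adjusted p = 5.93e-18). Sorcs3 itself stood at 23.2 to 121 CPM in IRI mice and 382 to 965 CPM in controls, over all UMIs. Nrg1, a ligand of ErbB receptors, had 596 to 2033 CPM in IRI mice and 114 to 431 CPM in controls (log2 change 1.78, edgeR adjusted p = 7.27e-05).

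Kcnip4, Cacna2d3 and Pak3 were among the 12 largest rises with no overlap between groups. Calls with no overlap made up 9.47% of tested genes for rises and 2.63% for falls. Kcnip4, which encodes a partner of potassium channels, had 1318, 2870 and 2868 CPM at day 28, 2618 and 2010 CPM at day 7, and 10.4, 0, 0 and 0 CPM in controls, a pooled ratio of 323 (counting interval 89.3 to 2664, edgeR adjusted p = 3.41e-23). Cacna2d3, a subunit of calcium channels, had 85.0 to 152 CPM in IRI mice and no UMI in controls, at least 11.4-fold higher (edgeR adjusted p = 1.02e-08). Pak3, a kinase, had 63.8 to 187 CPM in IRI mice and no UMI in controls, at least 12.1-fold higher (edgeR adjusted p = 2.28e-08). Without control mouse 1, the remaining controls held no UMI of Kcnip4, Sorcs1, Havcr1, Emcn or Klf6, an early response factor that had 134 to 237 CPM in IRI mice and 36.4 CPM in that control.

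Fth1, Cldn8, Tmem30b and the mitochondrial genes mt-Nd1 and Cox5b were among the 12 largest falls. Fth1, the heavy chain of ferritin, had 63.8, 85.8 and 30.7 CPM at day 28, 44.2 and 46.4 CPM at day 7, and 665, 744, 1124 and 843 CPM in controls (log2 change -4.03, SE 0.296, edgeR adjusted p = 5.97e-34). Cldn8, a claudin of distal and collecting tubules, had 21.3, 2.68 and 2.19 CPM at day 28, 2.14 and 0 CPM at day 7, and 104, 57.2, 118 and 76.7 CPM in controls (log2 change -5.24, SE 0.757, edgeR adjusted p = 6.47e-10). Tmem30b, a subunit of lipid flippases, had a pooled ratio of 0.0106 (counting interval 0.00204 to 0.0346), with 3 UMIs in all IRI members (edgeR adjusted p = 1.86e-09). The mt-Nd1 gene, for a subunit of respiratory complex I carried by the mitochondrial genome, had 2.68 to 21.3 CPM in IRI mice and 76.7 to 473 CPM in controls (log2 change -4.96, SE 0.496, edgeR adjusted p = 1.23e-19). Cox5b, for a subunit of cytochrome oxidase, had 0 to 10.7 CPM in IRI mice and 59.1 to 230.0 CPM in controls (log2 change -4.03, edgeR adjusted p = 6.09e-07). No IRI library reached a control for these 5 genes, but part of that gap rested on single UMIs. Cldn8 and Tmem30b held 1 UMI each in control mice 2 and 4, worth 57.2 and 76.7 CPM there. The mt-Nd1 gene held 1 UMI in control mouse 4. Cldn8, Tmem30b, mt-Nd1 and Cox5b were not called with the barcode set as a term. Beside them, in the 5-gene nuclei, ribosomal protein genes took 0.159% to 0.456% of UMIs in IRI libraries and 0.512% to 1.17% in controls, and mitochondrial genes 0.0067% to 0.0865% in IRI libraries and 0.0769% to 0.367% in controls. The part of these shares in the falls was not tested.

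Proximal tubule genes had lower levels after injury in the 5-gene nuclei and in the nuclei around them. In 5-gene nuclei the list summed to 1568 ± 504 CPM in IRI mice (SD, n = 5) and 3508 ± 415 CPM in controls (SD, n = 4), and 5 of 10 tested genes fell and none rose, with 3 of 9 lower without control mouse 3 and 8 of 12 without day 28 mouse 1. It averaged 2149 ± 788 CPM in IRI and 7444 ± 2746 CPM in control TAL nuclei, and 4728 ± 1091 CPM in IRI and 18600 ± 1955 CPM in control nuclei of all other kinds (SD, n = 5 and n = 4). The part of RNA released from other cells in these levels was not tested. Slc7a13, an amino acid transporter of the straight proximal tubule, had 19.7 to 45.6 CPM in IRI mice and 452, 0, 178 and 153 CPM in controls (log2 change -3.40, and -2.23 without control mouse 1, edgeR adjusted p = 9.32e-21). Slc22a6, an organic anion transporter, had 0 to 8.29 CPM in IRI mice and 0 to 138 CPM in controls (log2 change -5.23, edgeR adjusted p = 1.56e-05). Both overlapped through a control with no UMI. The rule kept Slc34a1 of the proximal list and Slc12a1 of the TAL list low. Low sums of either list in 5-gene nuclei were therefore partly fixed by the choice. TAL markers averaged 257 CPM in IRI and 323 CPM in control 5-gene nuclei. Of 3 tested, Umod, the uromodulin gene, had 10.9 to 63.8 CPM in IRI mice and 0 to 178 CPM in controls (log2 change -2.19, edgeR adjusted p = 0.000632), Ppp1r1a fell and Cldn10 rose. Trpm6, a magnesium channel of the distal tubule, had 85.0 to 309 CPM in IRI mice and 0 to 78.9 CPM in controls (log2 change 2.65, edgeR adjusted p = 4.78e-07).

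Genes of the salty medulla were lower or not called. Of 7 tested genes for osmolytes and hypertonic stress, Akr1b3, Sgk1 and Aqp1 fell and none rose, 1 of 6 fell without control mouse 1, and the list summed to 2265 CPM in IRI and 3374 CPM in control libraries. Heat shock genes summed to 341 CPM in IRI and 757 CPM in control libraries, with 4 of 6 tested lower (Hspa8, Hspa5, Hsp90aa1 and Hsph1), or 2 of 6 without control mouse 1. Hspa8 had 40.2 to 170 CPM in IRI mice and 76.7 to 296 CPM in controls (log2 change -1.52, edgeR adjusted p = 0.000124), its groups overlapped, and with the barcode set as a term its change was 0.35 and not called. Among 7 chloride channel and tight junction genes Cldn10 rose and Cldn4, Cldn7, Cldn8 and Tjp1 fell. In the Notch list Notch2 rose and Hes1 fell of 5 tested, in the podocyte list Magi2 and Cldn1 rose of 7, in the leukocyte list Csf1r fell of 2, and in the distal list Trpm6 and Slc8a1 rose of 2. Of 5 immediate early genes Klf6 alone rose, neither of 2 cell cycle genes passed, the collecting duct and urothelium lists each had 1 gene tested and none called, and no intercalated cell gene reached the test. Over all tested genes, 18.2% rose and 10.4% fell.

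**Figure D4:**
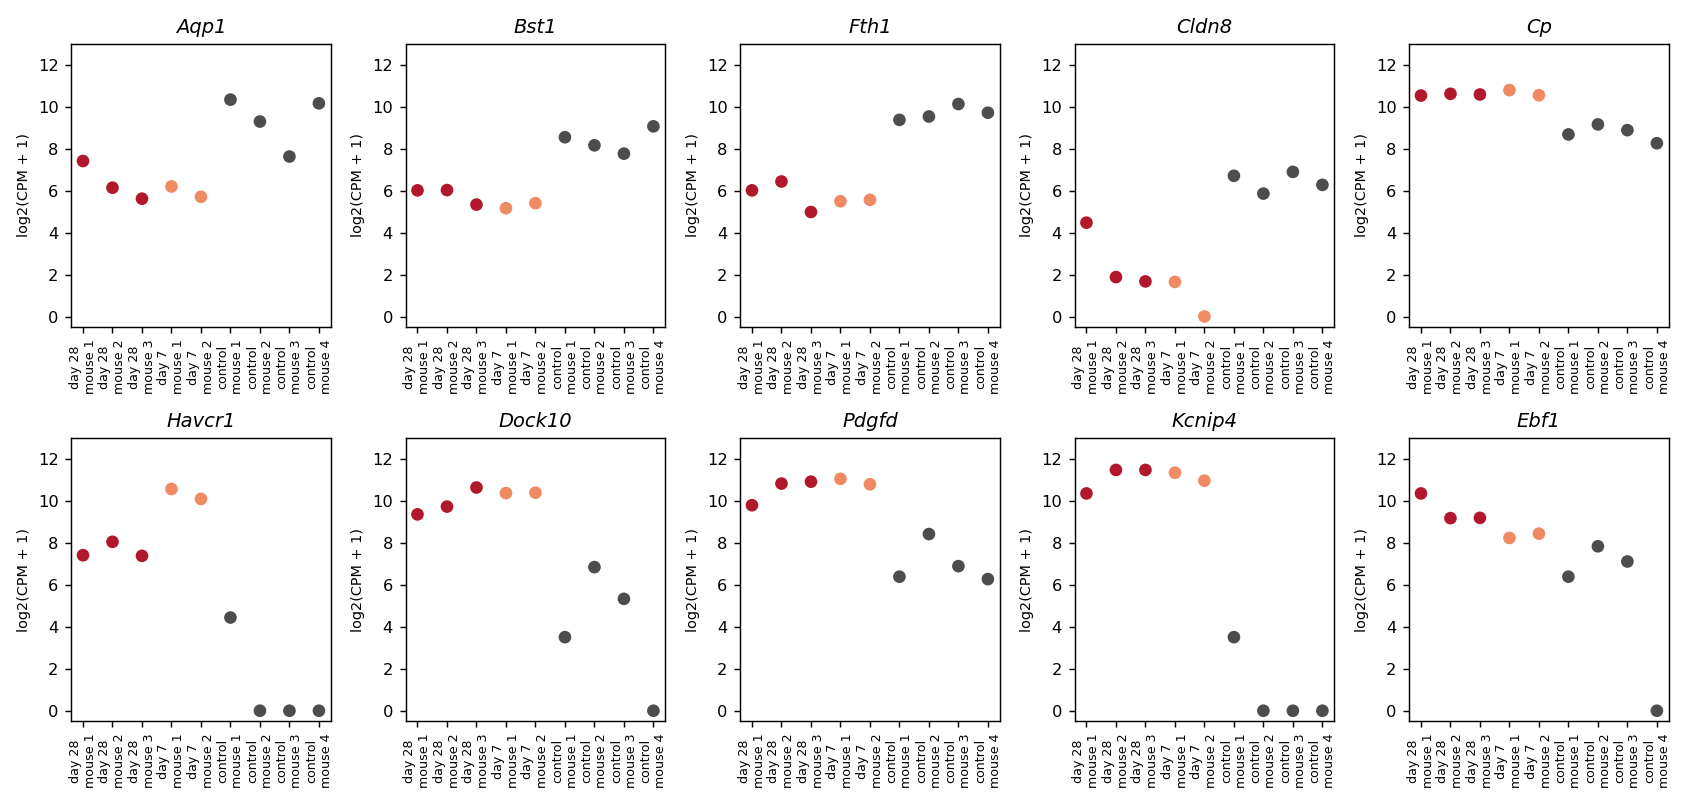
Level of 10 genes in the 5-gene nuclei of each library, as log2(CPM + 1) over tested genes after TMM scaling, with 1 point per mouse. Aqp1, Bst1, Fth1 and Cldn8 are lower in all 5 IRI mice than in all 4 controls, the other 6 genes are higher in all IRI mice, and Havcr1 is higher at day 7 (1525 and 1099 CPM) than at day 28 (166 to 266 CPM). Cldn8 held 1 UMI each in control mice 2 and 4.

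Day 28 against day 7 compares mice of the same reporter line and sort. Of 6618 genes, 507 differed (7.66%), 373 of them higher (5.64%) and 134 lower (2.02%) at day 28, and the median log2 change of all genes was -0.03. DESeq2 called 142. The count was 126 and 189 without day 7 mouse 1 or 2, and 246 and 227 without day 28 mouse 2 or 3. Among the members chosen without Tshz2 it was 39, with day 28 mouse 1 left out for its 5 nuclei. In the main fit, with 3 against 2 mice, the controls also set the estimate of spread.

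Of 14 injured tubule genes Havcr1, Cd44 and Runx1 were lower at day 28 and none was higher, and of 7 stroma genes Pdgfra, Pdgfrb, Lama2 and Ebf1 were higher and none lower. Without day 7 mouse 1 the counts were 1 injured tubule gene lower and 1 stroma gene higher, as with DESeq2, and without day 7 mouse 2 they were 2 and 2. Havcr1, at 170, 266 and 166 CPM at day 28 and 1525 and 1099 CPM at day 7, had a log2 change of -2.66 (SE 0.381, edgeR adjusted p = 9.75e-10). Cd44, at 85.0, 204 and 313 CPM at day 28 and 745 and 613 CPM at day 7, had a log2 change of -1.55 (SE 0.329, edgeR adjusted p = 0.000126), and was not called without day 7 mouse 1 (adjusted p = 0.178). Pdgfrb, at 404, 107 and 114 CPM at day 28 and 19.2 and 29.8 CPM at day 7, had a log2 change of 2.63 (SE 0.392, edgeR adjusted p = 4.56e-09). Pdgfra, at 298, 140 and 215 CPM at day 28 and 22.1 and 61.3 CPM at day 7, had a log2 change of 2.35 (edgeR adjusted p = 9.97e-09) and was not called without day 7 mouse 1 (adjusted p = 0.0973). The time points did not overlap for any of these 4 genes. Beside the stroma genes, 50.9%, 48.6% and 52.6% of members at day 28 and 38.6% and 41.1% at day 7 held 2 or more UMIs of stroma, endothelium or leukocyte markers, and the part of those nuclei in the change was not tested.

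Of 10 thin limb markers outside the rule, Corin was higher and Jag1, a Notch ligand, lower at day 28, and the other 8 were not called. Corin was at 140 CPM in day 28 mouse 2, against 0 and 15.3 CPM in the other day 28 mice. No gene of the nuclear factor kappa B list (10 tested), the matrix list (19) or the heat shock list (6) was called. Id3, an inhibitor of DNA-binding factors downstream of bone morphogenetic proteins, was higher at day 28, at 574, 64.4 and 50.4 CPM, against 15.0 and 8.29 CPM at day 7 (log2 change 3.12, SE 0.453, edgeR adjusted p = 1.76e-09). Hes1, a target of Notch, was at 319, 53.6 and 50.4 CPM at day 28, against 15.0 and 9.94 CPM at day 7 (log2 change 2.52, SE 0.457, edgeR adjusted p = 3.31e-06). Day 28 mouse 1, the v2 library, was the highest for both genes.

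Hs3st5, Diaph3, Gm42418, Slc17a1, Kcnq5 and Rplp1 were, with Havcr1, among the 12 largest falls at day 28. Hs3st5, a heparan sulfate sulfotransferase, had 0, 34.9 and 19.7 CPM at day 28 and 452 and 219 CPM at day 7 (log2 change -3.75, SE 0.388, edgeR adjusted p = 4.31e-18). Kcnq5, a potassium channel, had 21.3, 24.1 and 92.0 CPM at day 28 and 485 and 229 CPM at day 7 (log2 change -2.66, SE 0.341, edgeR adjusted p = 4.41e-12). Diaph3, a formin that builds actin filaments, had 42.5, 13.4 and 10.9 CPM at day 28 and 117 and 116 CPM at day 7 (log2 change -3.03, edgeR adjusted p = 1.33e-08). Slc17a1, a phosphate and urate transporter of the proximal tubule, had 19.7 to 32.2 CPM at day 28 and 205 and 141 CPM at day 7 (log2 change -2.78, edgeR adjusted p = 9.38e-10). None of these genes overlapped between the time points, as in 1.86% of tested genes for lower and 4.9% for higher calls. Gm42418, an RNA gene whose locus overlaps ribosomal RNA sequence, had 191, 1655 and 2521 CPM at day 28 and 9863 and 13320 CPM at day 7 (log2 change -2.93, edgeR adjusted p = 2.2e-06), and Rplp1, a ribosomal protein, had 13.1 to 42.5 CPM at day 28 and 75.5 and 103 CPM at day 7 (log2 change -2.40, edgeR adjusted p = 1.14e-05).

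Among the 12 largest rises at day 28 were several noncoding genes that lie opposite longer genes. Gm26883, inside Tshz2, had 723, 713 and 648 CPM at day 28, 39.2 and 8.29 CPM at day 7, and 540, 114, 237 and 230 CPM in controls. Since its reads may be those of Tshz2, which chose the nuclei, these levels are given as description with no test. Its day 7 libraries lay below both other groups. Gm26719, opposite Cped1, had no UMI at day 7 and was at least 31.5-fold higher at day 28 (edgeR adjusted p = 3.16e-08), with 5.20, 0, 39.4 and 0 CPM in controls. Gm42439, opposite Auts2, had a pooled ratio of 134 (counting interval 23.2 to 5380, edgeR adjusted p = 2.72e-10) and no UMI in controls. Gm26699, opposite Luc7l2, had a pooled ratio of 56.4 (counting interval 18.6 to 280, edgeR adjusted p = 1.2e-16), with 62.4, 57.2, 197 and 0 CPM in controls. Sox5os4, opposite Sox5, had 170, 56.3 and 48.2 CPM at day 28, 2.85 and 0 CPM at day 7, and 41.6, 114, 138 and 76.7 CPM in controls (log2 change of day 28 over day 7 4.83, SE 0.693, edgeR adjusted p = 1.03e-09). For Sox5os4, as for Gm26883, day 7 lay below every control. Without the counting strand, reads of each of these genes cannot be told apart from those of its partner.

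The last comparison asks where the change with injury in the 5-gene nuclei differed from that in TAL nuclei of the same mice. Of 7405 genes tested in a fit with each library as a block, 496 differed (6.7%): 247 had the higher change in 5-gene nuclei (3.34%) and 249 the lower (3.36%). The count was 224 without control mouse 1 and 17 with the barcode set as a term. The log2 difference given below is the change in 5-gene nuclei minus the change in TAL nuclei, and CPM are those of this fit. Of 9 thin limb markers outside the rule 3 had the lower change, Bst1 and Epha7 among them, and none the higher. Of 15 injured tubule genes Spp1, Cd44, Cp, Anxa2 and Anxa3 had the lower change and Dock10 the higher, and no gene of the nuclear factor kappa B list (9 tested) or the heat shock list (6) differed.

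Several genes that marked control 5-gene nuclei had the lower change there. Calls whose groups also did not overlap made up 0.702% of tested genes for the lower and 2.24% for the higher change. Htr4 had 134, 145 and 20.4 CPM at day 28, 13.5 and 2.84 CPM at day 7, and 287, 486, 911 and 146 CPM in controls in the 5-gene nuclei. In TAL nuclei it had 6.18, 16.0 and 22.3 CPM at day 28, 8.86 and 10.7 CPM at day 7, and 7.18, 0, 0 and 0 CPM in controls (log2 difference -5.04, SE 0.825, edgeR adjusted p = 1.22e-05). Every IRI library of 5-gene nuclei lay below every control, but day 28 mouse 2 and control mouse 4 nearly met, at 145 and 146 CPM. The value of control mouse 4 rests on 2 UMIs. Parm1 had 76.8 to 175 CPM in IRI and 97.3 to 433 CPM in control 5-gene nuclei, and 9.55 to 62.0 CPM in IRI and 0 to 13.2 CPM in control TAL nuclei (log2 difference -4.78, SE 0.688, edgeR adjusted p = 1e-06). Akap12, a scaffold for protein kinase A, had 189 to 586 CPM in IRI and 195 to 658 CPM in control 5-gene nuclei, overlapping, while TAL nuclei held 28.7 to 229 CPM in IRI mice and 0 to 26.5 CPM in controls (log2 difference -3.88, SE 0.481, edgeR adjusted p = 7.24e-08). For Akap12 the groups stood apart in the TAL nuclei.

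The same contrast held for Scel, Bst1 and Il17re. Scel had 96.0, 93.0 and 77.7 CPM at day 28, 50.4 and 24.1 CPM at day 7, and 725, 535, 535 and 219 CPM in controls in the 5-gene nuclei, against 58.2 to 118 CPM in IRI and 8.72 to 165 CPM in control TAL nuclei (log2 difference -2.96, SE 0.385, edgeR adjusted p = 1.51e-07). Bst1 had a log2 difference of -3.87 (SE 0.709, edgeR adjusted p = 9.31e-05), with 3.19 to 16.4 CPM in IRI and 0 to 26.5 CPM in control TAL nuclei. Il17re, a subunit of an interleukin 17 receptor, had 9.25 to 19.2 CPM in IRI and 73.1 to 115 CPM in control 5-gene nuclei, against 67.0 to 105 CPM in IRI and 52.9 to 75.4 CPM in control TAL nuclei (log2 difference -3.14, SE 0.49, edgeR adjusted p = 4.65e-06). Ncam1, a cell adhesion molecule, had 115 to 244 CPM in IRI and 48.65 to 357 CPM in control 5-gene nuclei, overlapping. TAL nuclei held 55.65 to 133 CPM of it in IRI mice and 0 to 17.45 CPM in controls (log2 difference -3.77, edgeR adjusted p = 1.47e-06). For Ncam1, as for Akap12, the groups stood apart in the TAL nuclei.

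Cp and Anxa3, of the injured tubule list, had the lower change in 5-gene nuclei. Cp had 1289 to 1538 CPM in IRI and 293 to 486 CPM in control 5-gene nuclei, against 229 to 787 CPM in IRI and 8.72 to 52.1 CPM in control TAL nuclei (log2 difference -1.96, SE 0.426, edgeR adjusted p = 0.00111). Both kinds of nuclei were higher after injury with no overlap. Anxa3, an annexin, had 115 to 221 CPM in IRI and 0 to 139 CPM in control 5-gene nuclei, against 18.6 to 167 CPM in IRI and 0 to 13.2 CPM in control TAL nuclei (log2 difference -4.24, SE 0.868, edgeR adjusted p = 0.000523).

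Kcnip4, Pdgfd and Itgb6 had the higher change in 5-gene nuclei, and in controls their CPM were higher in TAL nuclei. Kcnip4 had 1191, 2428 and 2421 CPM at day 28, 2260 and 1720 CPM at day 7, and 10.4, 0, 0 and 0 CPM in controls in the 5-gene nuclei. In TAL nuclei it had 940, 1374 and 2306 CPM at day 28, 1621 and 2482 CPM at day 7, and 158, 576, 76.1 and 569 CPM in controls (log2 difference 4.94, SE 0.745, edgeR adjusted p = 2.08e-06). Both kinds of nuclei were higher in all IRI mice than in all controls. Pdgfd had 807 to 1845 CPM in IRI and 73.1 to 292 CPM in control 5-gene nuclei, against 971 to 1383 CPM in IRI and 304 to 796 CPM in control TAL nuclei (log2 difference 2.90, SE 0.396, edgeR adjusted p = 3.14e-07). Set against all other nuclei in place of TAL nuclei, the log2 difference of Pdgfd was -0.31 (adjusted p = 0.747), so its direction turned with the nuclei it was set against. Itgb6 had 403 to 1547 CPM in IRI and 139 to 219 CPM in control 5-gene nuclei, against 649 to 1228 CPM in IRI and 370 to 640 CPM in control TAL nuclei (log2 difference 1.80, SE 0.352, edgeR adjusted p = 0.000249).

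Robo2, Syne1, Keg1 and Lrp2 also had the higher change in 5-gene nuclei. Robo2, a receptor for Slit proteins, had 277 to 692 CPM in IRI and 0 to 158 CPM in control 5-gene nuclei, against 59.3 to 166 CPM in IRI and 79.4 to 680 CPM in control TAL nuclei (log2 difference 2.85, SE 0.377, edgeR adjusted p = 1.64e-07). Syne1, which encodes the nuclear envelope protein nesprin, had 117 to 211 CPM in IRI and 0 to 10.4 CPM in control 5-gene nuclei, against 167 to 303 CPM in IRI and 71.6 to 236 CPM in control TAL nuclei (log2 difference 4.19, SE 0.692, edgeR adjusted p = 1.41e-05). Keg1, a kidney gene of the proximal tubule list, had 228 to 607 CPM in IRI and 439 to 1308 CPM in control 5-gene nuclei, against 169 to 1045 CPM in IRI and 1151 to 4279 CPM in control TAL nuclei (log2 difference 1.54, SE 0.304, edgeR adjusted p = 0.000292). Lrp2, the megalin gene, had 173 to 340 CPM in IRI and 73.1 to 436 CPM in control 5-gene nuclei, overlapping. TAL nuclei held 209.9 to 421.5 CPM of it in IRI mice and 449.8 to 1195 CPM in controls (log2 difference 1.22, edgeR adjusted p = 0.00787). Of 5 endothelium genes Pecam1, Flt1 and Tek had the higher change, and the difference of Flt1, 4.34, was not called without control mouse 1 (adjusted p = 0.125). With the barcode set as a term, 14 of the 17 genes examined were not called.

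**Figure D5:**
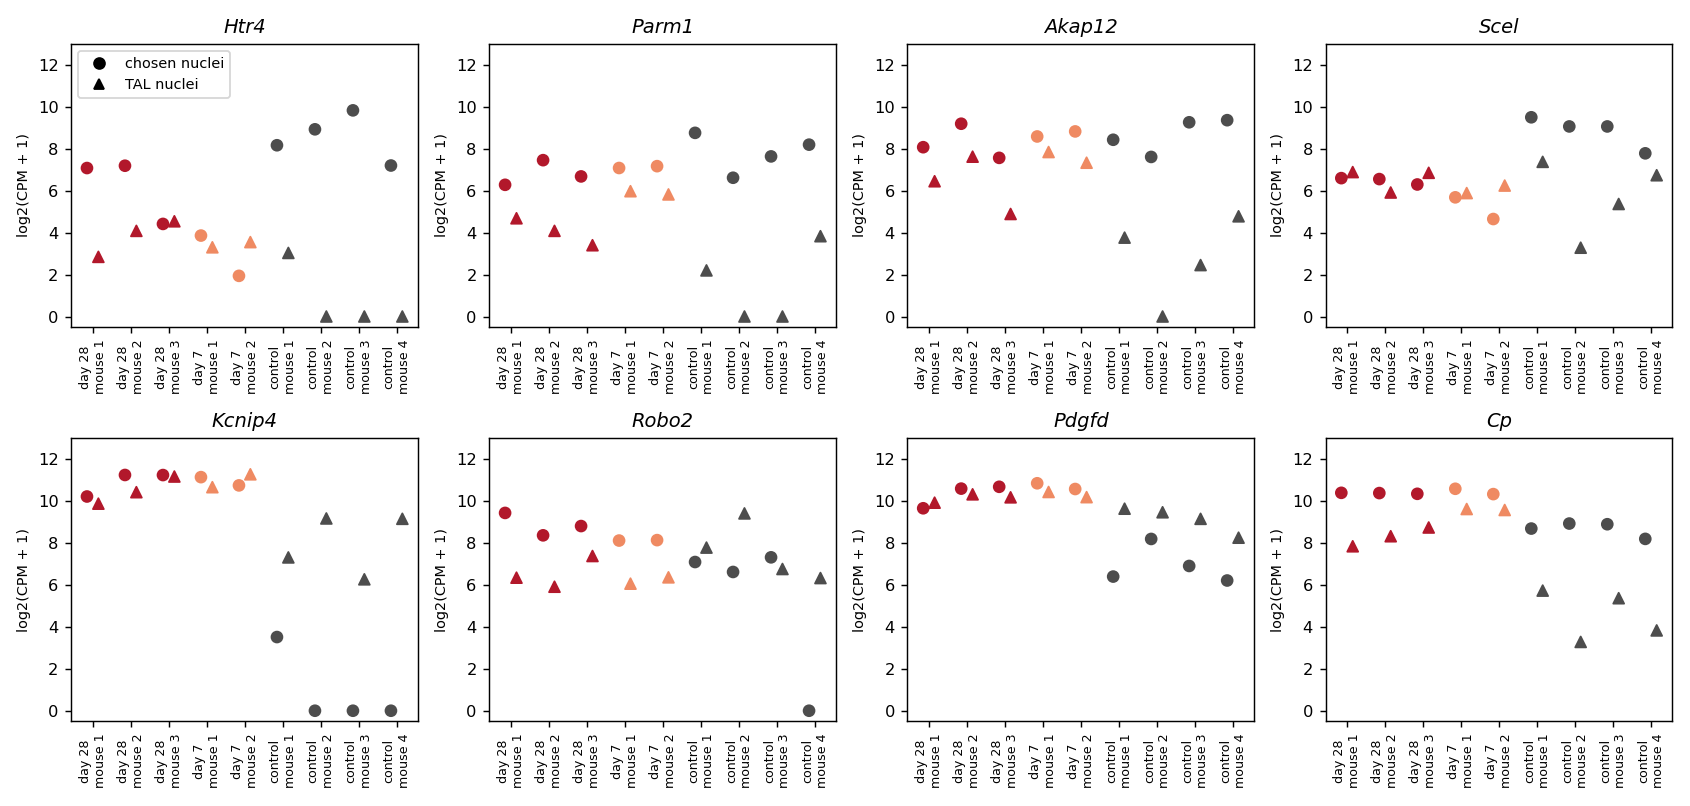
Level of 8 genes as log2(CPM + 1) after TMM scaling in each library, with circles for 5-gene nuclei and triangles for TAL nuclei of the same mouse. Htr4 and Scel are lower in the 5-gene nuclei of all IRI mice than of all controls, though the groups of Htr4 nearly meet (145 against 146 CPM). Kcnip4 stands at 1191 to 2428 CPM in IRI and 0 to 10.4 CPM in control 5-gene nuclei, against 76.1 to 576 CPM in control TAL nuclei.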

How the data were processed

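Unnormalized UMI counts came in 2 tables that the authors deposited, covering 19342 genes and 14622 nuclei of IRI mice and 17455 genes and 13116 nuclei of controls. Per the submitters' processing notes, Cell Ranger, STAR and Seurat were used with mm10. Their versions and any use of strand were not given in the sources used here. No cell type labels were used and no doublet caller was run. Nuclei were chosen by the rule, and their counts were summed per mouse over the 16939 genes in both tables. Sums were fitted with edgeR 4.0.16 in R 4.3.3 (limma 3.58.1), with filterByExpr, TMM scaling and groups day 28, day 7 and control in 1 fit; DESeq2 1.42.0 was an alternative. The TAL fit took library as a block. In all fits the genes of the rule stayed in the fit and were left out of the counts of called genes. SE is the absolute log2 change over the square root of F. Shares were compared with exact permutation tests in Python 3.11.15 (scipy 1.17.1). On simulated counts the fits recovered 97%, 99% and 91.5% of 4-fold changes in the 3 comparisons, with none in the wrong direction. They also called 9, 9 and 7 unchanged genes. The changed genes were drawn from those above the median level, so these rates do not cover genes with lower counts.

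Members and gene lists were chosen with earlier results of these data known. The text gives examples from genes chosen by rule: members of 22 lists that passed, and the 12 largest rises and 12 largest falls among called genes whose groups did not overlap and whose higher group averaged 20 CPM. Against other nuclei, the 20 largest ratios were considered. Other settings were another tool, no filter on low counts, each mouse left out, a replicate block, the barcode set as a term, a rule of 5 or more UMIs, the rule without Tshz2, nuclei without markers of other cell types, thinning to 1000 UMIs and all other nuclei as the comparison; those added after seeing the data are named below. Samples with the same replicate number deviated together no more than others (correlations -0.097 to 0.064), so the numbers pair nothing. Of 19858 gene symbols, 19563 were found in the GENCODE annotation of GRCm38, which gave positions and strands. Some genes of the lists are counted but not reported here by name.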

Additional observations from a re-analysis of the deposited data

Results flagged for a closer look

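In a group of 4 or 5 libraries, 1 library lay far from the others for several values of the 5-gene nuclei; chance alone marks about 1 group in 20, and genes with a gap under 3 UMIs were left out. Day 28 mouse 1, the IRI library with the fewest members, was far above the other IRI libraries for Aqp1 (170 CPM), Ebf1 (1318 CPM), Pdgfrb (404 CPM) and the activin and bone morphogenetic protein list (2384 CPM), and far below them for Pdgfd (893 CPM) and the matrix list (4134 CPM). Day 28 mouse 2 stood out for Corin (140 CPM) and for the intercalated cell list (131 CPM), and day 28 mouse 3 for Vcam1 (622 CPM). Control mouse 1, the mouse without surgery, stood out in its share of 5-gene nuclei (5.66%) and for Lama3 (520 CPM) and Akr1b3 (385 CPM). It was also apart for Emcn (52.0 CPM), Klf6 (36.4 CPM), Havcr1 (20.8 CPM) and Sorcs1 (15.6 CPM), of which the other controls held no UMI. On the scale of these levels a single UMI was worth 57.2 and 76.7 CPM in control mice 2 and 4, so those libraries could not show levels this low. In control mouse 3 it was worth 19.7 CPM, below the levels of Emcn, Klf6 and Havcr1. The part of depth in these gaps was not tested. Control mouse 2 stood out for Pdgfd (343 CPM) and control mouse 3 for Corin (651 CPM).

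The change with injury differed between 5-gene nuclei and TAL nuclei for 496 genes by the test of the difference itself (edgeR, library as a block). Among the genes named here, the log2 difference was negative for Htr4 (-5.04), Parm1 (-4.78), Anxa3 (-4.24), Akap12 (-3.88), Bst1 (-3.87), Ncam1 (-3.77), Il17re (-3.14), Scel (-2.96) and Cp (-1.96). It was positive for Kcnip4 (4.94), Flt1 (4.34), Syne1 (4.19), Pdgfd (2.90), Robo2 (2.85), Itgb6 (1.80), Keg1 (1.54) and Lrp2 (1.22).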

How the results depend on the processing

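Over the alternatives, the count of genes that differed between IRI and control mice, 1892, was 964 with DESeq2, 1150 with a replicate block, 182 with the barcode set as a term, 1100 with a rule of 5 or more UMIs, 585 without Tshz2 in the rule, 92 with v2 libraries alone (day 28 mouse 1 against the controls), 889 among nuclei that need Tshz2, and 738 to 2042 with 1 library left out. The count between day 28 and day 7, 507, was 142 with DESeq2, 781 with no filter on low counts, 224 with a replicate block, 39 without Tshz2, 271 without nuclei holding UMIs of other cell types, 332 among nuclei that need Tshz2, and 126 to 615 with 1 library left out. The count that differed from TAL nuclei, 496, was 17 with the barcode set as a term, 272 with 5 or more UMIs, 1573 against all other nuclei, 3 with v2 libraries alone, 286 among nuclei that need Tshz2, and 224 to 525 with 1 library left out. Each fit left out libraries with under 10 chosen nuclei. Without Tshz2 these were day 28 mouse 1 and control mice 2 and 4, and with 5 or more UMIs they were control mice 2 and 4. Without Tshz2 every IRI library left was of the v3 set and every control of the v2 set, so injury and barcode set cannot be told apart there. The v2, Tshz2-needing and 500-UMI settings, and one without controls 2 and 4, were chosen after seeing the data. The share difference of 5.52 points was 2.03 thinned to 1000 UMIs, 0.33 thinned to 500 (exact permutation p = 0.619), 3.0 with 5 or more UMIs (p = 0.0714), 0.278 without Tshz2, 2.20 without nuclei of other cell types (p = 0.159) and 4.27 to 6.73 with 1 library left out. The day 28 minus day 7 share difference turned to 0.634 without day 28 mouse 1 and 0.611 thinned to 500, and was -4.15 at its lowest with 1 library left out. Turned gene changes were Lama3 (0.015 without control mouse 1, -1.51 at its lowest with another library left out), Hspa8 and Cldn4 (0.35 and 0.19 with the barcode term, which leaves 1 IRI library to set against the controls) and Pdgfd (-0.31 against all other nuclei). The cause was not tested. Of 46 named genes between IRI and control, 38 kept the call with DESeq2, 44 with the replicate block, 25 with the barcode term, all 40 tested without nuclei of other cell types, 26 of 29 tested without Tshz2 and 41 with any 1 library left out. Control mice 2 and 4, with 20 and 12 members, set the depth limit.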
